A study of Arabidopsis thaliana with 8 samples.

Results

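nad1 and matR are 2 of the 33 mitochondrial genes with ribosome footprint values in this study, and matR lies inside an intron of nad1. Both genes were taken by name, with their footprint values in every genotype, the matR to nad1 ratio in every library, and their 28 editing sites (18 in nad1, 10 in matR) of 434 listed sites. Footprints came from ribosome profiling (Ribo-seq), which sequences the mRNA fragments that ribosomes protect from nuclease, in flowers of Arabidopsis thaliana. There were 2 libraries, A and B, for each of the wild type Col-0 and the mutants mtl1 and mtsf1, both in the Col-0 background. RNA editing was read in 2 RNA-seq libraries of Col-0 flowers only. The labels call mtl1 a ppr mutant linked to translation of the nad7 mRNA, and mtsf1 a ppr mutant linked to stability of the nad4 mRNA. The mutant alleles, the number of plants per library and whether A and B are separate plants are not given in the labels. A footprint p-value here therefore reflects no more than how far libraries of the same genotype lie apart, and that spread may be technical. In the main fit it is 1 spread shared by all genes and genotypes, not that of the gene itself. In flowers as bulk tissue, fewer cells of a type and less RNA per cell cannot be told apart. All plants grew for 10 to 12 weeks in long days, and the flowers of all genotypes were harvested at the same time.

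nad1 encodes a membrane subunit of complex I (NADH dehydrogenase), the entry point of the respiratory chain, at the place where the membrane arm meets the arm that holds the quinone-binding site. Its coding sequence is scattered over the plant mitochondrial genome, and its mRNA is assembled by cis-splicing and trans-splicing, the joining of separately transcribed precursors. matR encodes a maturase, a protein related to the splicing factors that group II introns carry, and in Arabidopsis it is known to take part in the splicing of several mitochondrial introns. MTL1 and MTSF1 are pentatricopeptide repeat proteins, a family of nuclear-encoded factors that bind organellar RNA. Cytidine-to-uridine editing, read as C-to-T in sequencing, changes codons of most plant mitochondrial mRNAs before translation.

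On the TAIR10.1 assembly (MT, the mitochondrial genome), nad1 has 978 bp of coding sequence in 5 segments. Segment 1 lies on the minus strand at MT 82937 to 83321. Segments 2 and 3 lie on the plus strand at MT 58315 to 58397 and MT 59290 to 59481. Segments 4 and 5 lie on the plus strand at MT 230304 to 230362 and MT 233874 to 234132. The single matR reading frame, 1971 bp on the plus strand at MT 231089 to 233059, sits in the 3511 bp intron between segments 4 and 5. It starts 726 bp into that intron, ends 814 bp before its end and fills 56.1% of it. A mature nad1 mRNA therefore lacks the matR frame, and in the table each gene has 1 value of its own. Values for the rest of the intron were not analysed here.

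**Figure D1:**
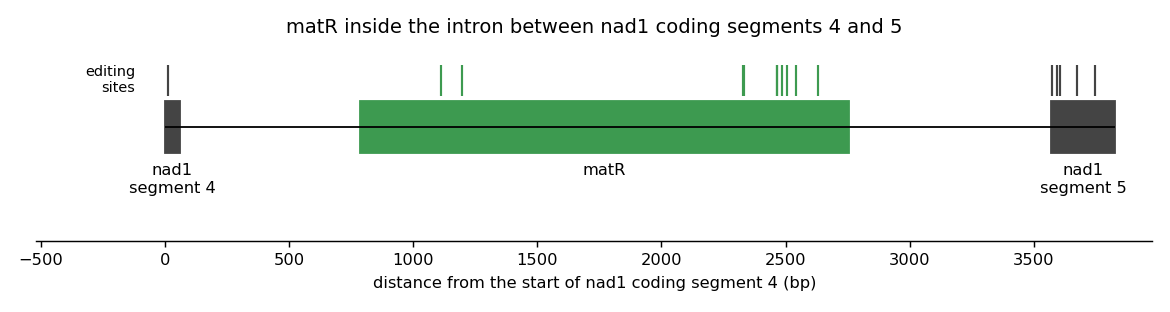
Map to scale of nad1 coding segments 4 and 5 and the intron between them, with the distance from the start of segment 4 in bp on the x axis. Boxes are coding sequence and ticks are the listed editing sites: matR fills 56.1% of the intron and carries 10 sites, 8 of them toward its 3′ end, while segment 4 has 1 site and segment 5 has 5.

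Each deposited editing site comes with 26 bases of transcript sequence in which the site is base 21. All 28 sequences of nad1 and matR matched 1 place in the coding sequence of their gene. At the site, 27 had T where the genome had C, and the sequence of nad1 position 674 had C like the genome. The sequences below show the kinds of site the editing results turn on, as the deposited form and the TAIR10.1 form, 5′ to 3′. Capitals mark the site and any other base that differs between the 2 forms. The first pair is a nad1 codon with 2 sites, the second a cluster of 3 nad1 sites and the third a pair of nad1 sites 9 bases apart with very different read depth.
nad1 307 and 308, deposited: tggtatggtattgtcagatTTgaaca
nad1 307 and 308, genome (MT 83009 to 83034, minus strand): tggtatggtattgtcagatCCgaaca
nad1 490, 492 and 493, deposited: tactaatatgtgtaggtTcTTgtaat
nad1 490, 492 and 493, genome (MT 59294 to 59319, plus strand): tactaatatgtgtaggtCcCCgtaat
nad1 571 and 580, deposited: tggttatgttcTttatttctTgtcta
nad1 571 and 580, genome (MT 59381 to 59406, plus strand): tggttatgttcCttatttctCgtcta

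For matR, the first and last pairs hold the 2 sites with the most reads, and the middle pair 2 silent sites with low reference editing.
matR 326, deposited: tgtactactatcggccctacTaggca
matR 326, genome (MT 231394 to 231419, plus strand): tgtactactatcggccctacCaggca
matR 1545 and 1548, deposited: tctatcagcagcgaattTccTataaa
matR 1545 and 1548, genome (MT 232616 to 232641, plus strand): tctatcagcagcgaattCccCataaa
matR 1759, deposited: aagtccgaacgattgtcgacTaccag
matR 1759, genome (MT 232827 to 232852, plus strand): aagtccgaacgattgtcgacCaccag
Numbers after the gene name are positions in the coding sequence, counted from 1 at the first base of the start codon.

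The Ribo-seq libraries behaved alike within a genotype. Replicates correlated across the 33 genes with r of 0.988 to 0.993 on the log2 scale, and the table totals, which are sums of normalized values and not depths, ran from 216316 to 290301. No depth can be recovered from the table. The nuclear genes MTL1 and MTSF1 are not in the table, so the labels were checked on the mRNAs they act on: nad7 had 460 and 394 normalized counts in mtl1 against 8132 and 6785 in Col-0, and nad4 had 216 and 207 in mtsf1 against 13818 and 11147.

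nad1 footprints did not pass the test in either mutant. Col-0 had 9643 (A) and 8025 (B) normalized counts, the mtl1 mutant 6219 and 7537, and the mtsf1 mutant 7203 and 7480. Both mutants lay below both Col-0 libraries, and the mutants overlapped each other. Values that do not overlap were common in this table: in mtl1 against Col-0 they made up 75.8% of the 33 genes, 45.5% lower and 30.3% higher, and in mtsf1 against Col-0 also 75.8%, 39.4% lower and 36.4% higher. The log2 difference was -0.36 in mtl1 (SE 0.23, adjusted p = 0.217), a fold of 0.778 with a 95% interval of 0.564 to 1.07. In mtsf1 it was -0.26 (adjusted p = 0.392), a fold of 0.834 with an interval of 0.605 to 1.15, and after scaling the libraries to equal totals it turned to 0.07. These p-values come from 1 limma fit on log2(value + 1) over the 6 libraries, with Benjamini-Hochberg adjustment over all 33 genes.

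matR footprints were 3.69-fold higher in mtsf1 than in Col-0. The maturase gene had 400 and 293 normalized counts in A and B of Col-0, only 251 and 227 in those of mtl1, but 1229 and 1306 in those of mtsf1. Both mtsf1 libraries lay above all 4 others, and both mtl1 libraries lay below all 4 others. Of the 33 genes, 45.5% had both mtl1 values below both of Col-0, and 36.4% had both mtsf1 values above both of Col-0. The rise in mtsf1 was 1.88 on the log2 scale (SE 0.23, 95% interval 1.42 to 2.35, limma adjusted p = 2.9e-11), the highest difference of the 33 genes in that comparison, in which 48.5% of genes passed at an adjusted p below 0.05, with 27.3% higher and 21.2% lower. With each gene's own variance in place of the shared one, the adjusted p of the limma fit was 0.0260, and over all alternatives it ran from 9.6e-16 to 0.0260. The labels give no RNA-seq of the mutants, so a change of footprints can be a change of mRNA, of translation or of both.

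In mtl1 matR lay lower than in Col-0 without passing the test, with a log2 difference of -0.52 (SE 0.23, limma adjusted p = 0.0731) and a fold of 0.698 (95% interval 0.506 to 0.963, not adjusted for the number of genes). In that comparison 33.3% of the 33 genes passed, 15.2% higher and 18.2% lower. The size of the difference depended on the Col-0 libraries: it was -0.74 without Col-0 B and -0.29 without Col-0 A. With all libraries kept, it passed only when genes of low mean other than the members were left out (limma adjusted p = 0.0436). With a variance that follows the level the limma adjusted p was 0.215, with a fold interval of 0.446 to 1.09. With each gene's own variance it was 0.202, with an interval of 0.454 to 1.07.

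Between the mutants, matR was 5.29-fold higher in mtsf1 than in mtl1 (95% interval 3.84 to 7.29). The log2 difference of mtl1 minus mtsf1 was -2.40 (SE 0.23, limma adjusted p = 2.9e-16, or 0.00955 with each gene's own variance). In this comparison 24.2% of the 33 genes passed, 9.09% higher and 15.2% lower in mtl1. Only nad7, the mRNA that MTL1 acts on, had a lower value there. nad1 had a log2 difference of -0.10 between the mutants (limma adjusted p = 0.735), which turned to 0.04 without mtl1 A. The mutants' values of nad1 overlapped, as did those of 33.3% of all genes, the other 66.7% being apart.

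**Figure D2:**
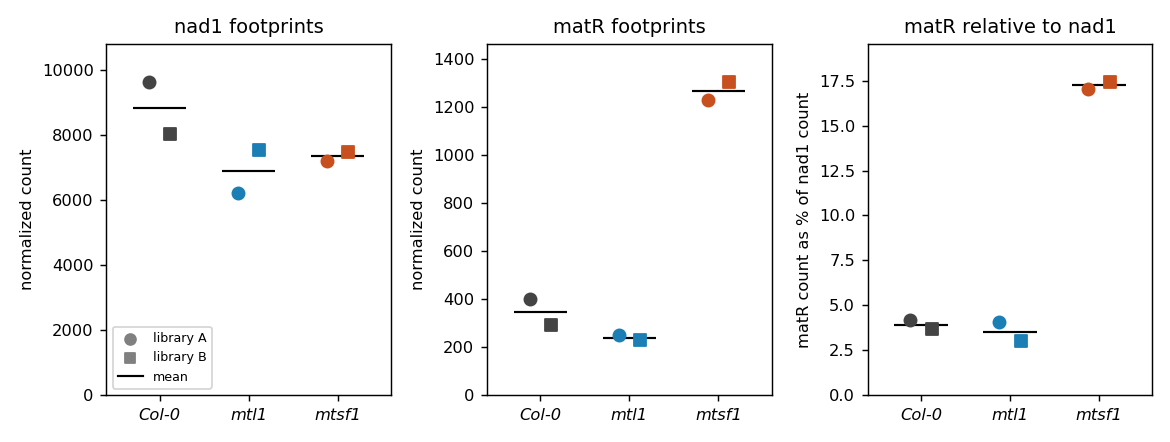
Normalized footprint counts of nad1 (left) and matR (middle) and the matR count as a percentage of the nad1 count (right) in each Ribo-seq library, with circles for library A, squares for library B and a line at the mean of the 2. matR stands at 1229 and 1306 in mtsf1 and at 400 or fewer in the other 4 libraries, while all 6 nad1 values lie between 6219 and 9643.

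**Figure D3:**
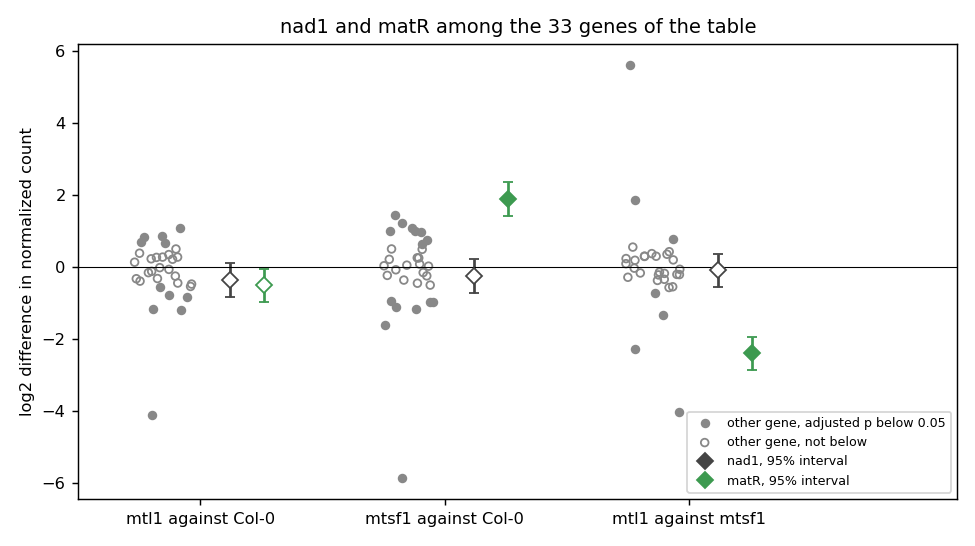
Log2 differences in normalized count for the 33 genes in the 3 comparisons (y axis), with nad1 and matR as diamonds with 95% intervals and the other genes as circles, filled where the adjusted p was below 0.05. The matR diamond is the highest point in mtsf1 against Col-0 (1.88) and the second lowest in mtl1 against mtsf1 (-2.40), and nad1 is open in all 3 comparisons. The first 2 comparisons share the Col-0 libraries.

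Within a library the matR to nad1 ratio does not change when the library is scaled by a single factor. The normalization method was not stated, and one that treats genes differently could change the ratio. In Col-0 A and B, matR footprints came to 4.15% and 3.65% of nad1 footprints. The mtl1 libraries had 4.04% and 3.01%, and the mtsf1 libraries 17.1% and 17.5%. The mtsf1 libraries stood apart from the other 4, and mtl1 overlapped Col-0. How many of the other genes' ratios to nad1 stood apart was not counted. In normalized counts 75.8% of the 33 genes did so in mtsf1 against Col-0. The Col-0 mean was 3.90% ± 0.351 (SD, n = 2), that of mtl1 3.52% ± 0.724 and that of mtsf1 17.3% ± 0.281. Put another way, nad1 had 24.1 and 27.4 times the matR count in Col-0, and 5.86 and 5.73 times in mtsf1.

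The ratio was 4.43-fold higher in mtsf1 than in Col-0 (95% interval 3.13 to 6.26). Its log2 difference was 2.15 (SE 0.25, limma adjusted p = 3.5e-12), from a fit of the ratio of each of the other 32 genes to nad1. In that fit 56.2% of the 32 genes passed in mtsf1 against Col-0, 34.4% higher and 21.9% lower, and all of their ratios share the error of nad1. In mtl1 the ratio differed from Col-0 by -0.16 (SE 0.25, limma adjusted p = 0.658), a fold of 0.897 with an interval of 0.634 to 1.27, while 46.9% of the 32 genes passed, 37.5% higher and 9.38% lower. Without mtl1 B that difference turned to 0.05. The ratio was 4.93-fold higher in mtsf1 than in mtl1 (95% interval 3.49 to 6.98, log2 difference of mtl1 minus mtsf1 -2.30, limma adjusted p = 1.1e-13), where 28.1% passed, 12.5% higher and 15.6% lower in mtl1. With each gene's own variance the limma adjusted p of the ratio was 0.0116 in mtsf1 against Col-0 and 0.0125 in mtl1 against mtsf1. With 2 libraries a group, 0.333 is the smallest p of an exact permutation test, and none was run.

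Per kilobase of coding sequence, levels of different genes can be set side by side only if the deposited values were not already corrected for length. The normalization was not stated. On this scale matR was at the bottom of the table in Col-0. It had 203 and 149 normalized counts per kb there, rank 31 of 31 genes in each (the atp6 copies were left out). In mtl1 it had 127 and 115, again rank 31. In mtsf1 it had 624 and 663, rank 29 and 28. nad1 kept a middle place, with 9860 and 8206 per kb for Col-0 (rank 12 and 13), 6359 and 7707 for mtl1 (rank 15 and 12) and 7365 and 7648 for mtsf1 (rank 13 and 12). On this scale matR footprints in Col-0 were 1.93% ± 0.174 (SD, n = 2) of those of nad1, beside 1.75% ± 0.359 for mtl1 and 8.56% ± 0.139 for mtsf1.

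As a share of the table total, matR took 0.138% and 0.108% in Col-0. Its share was 0.0966% and 0.0857% for mtl1, and 0.540% and 0.604% for mtsf1. The order of the groups is the one seen in the normalized counts. nad1 took 3.32% and 2.97% in Col-0, while its share was 2.39% and 2.84% for mtl1 and 3.16% and 3.46% for mtsf1. On this scale the mtsf1 and Col-0 libraries of nad1 overlapped.

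The genes whose footprints followed matR most closely over the 6 libraries were rps3 (Pearson r = 0.976 of log2 values), rpl16 (0.957) and rpl2 (0.828). All encode ribosomal proteins, but that class did not follow matR as a whole. The other ribosomal protein genes had r of 0.754 (rps7), 0.555 (rpl5), 0.260 (rps12) and -0.279 (rps4). These values describe 6 libraries that fall into 3 genotypes. In mtsf1 against Col-0 the log2 differences were 0.99 for rps3, 1.43 for rpl16 and 1.07 for rpl2, all past the limma threshold. In mtl1 against Col-0 they were -0.33, -0.85 and 0.34, of which rpl16 passed. rps3 and rpl16 overlap in the genome, so their counts may share reads. For nad1 the closest genes were atp6-1 (r = 0.892), atp6-2 (0.802), which are copies of a gene for an ATP synthase subunit that share sequence and may have split reads, and nad6 (0.739), another complex I membrane subunit.

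Complex I genes as a list are the partners of the nad1 protein. In mtsf1 against Col-0, 3 of the 9 measured genes fell, namely nad4 (log2 difference -5.87), nad2 (-1.62) and nad9 (-0.98), and none rose, beside 21.2% lower and 27.3% higher over the 33 genes. The other 6, nad1 among them, lay between -0.26 and 0.08, and the list's median was -0.24 beside 0.03 over all 33 genes. In mtl1 against Col-0, 2 of 9 fell, nad7 (-4.12) and nad9 (-1.16), beside 18.2% lower and 15.2% higher over the 33 genes, and the other 7 lay between -0.48 and 0.22, with a median of -0.26 beside -0.13. Between the mutants nad2 (1.84) and nad4 (5.61) were higher in mtl1 and nad7 (-4.04) was lower, 3 of 9 genes beside 24.2% of all 33. With each gene's own variance nad9 no longer passed in either mutant, and nad6 passed in mtl1 against Col-0 when mtl1 B was left out. Between the mutants nad6 also passed without mtl1 B, after either scaling to equal totals and with genes of low mean left out. nad2 and nad9 encode a membrane arm and a matrix arm subunit of complex I.

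The 9 mitochondrial mRNAs that carry introns and were measured are nad1, nad2, nad4, nad5, nad7, ccmFC, cox2, rpl2 and rps3. In mtsf1 against Col-0, 2 of them rose (rpl2 and rps3), 2 fell (nad2 and nad4) and 5 did not pass, between -0.37 and 0.49. These 4 of 9 stand beside 48.5% of all 33 genes. Their median was -0.24, beside 0.03 over all genes, and rpl2 and rps3 no longer passed with each gene's own variance. In mtl1 against Col-0 only nad7 of the 9 passed, beside 33.3% of all genes, and 8 lay between -0.36 and 0.34. Without Col-0 A rpl2 passed as well. In mtsf1 against Col-0 ccmFC passed without Col-0 A, after either scaling to equal totals, with genes of low mean left out and with a variance that follows the level. nad2 and nad5 are joined by trans-splicing like nad1. Of these, nad2 fell in mtsf1, while nad5 was at -0.24 and nad1 at -0.26 there. Between the mutants 5 of the 9 passed, beside 24.2% of all genes: nad2 and nad4 were higher and nad7, rpl2 and rps3 lower in mtl1, of which rpl2 did not pass without mtl1 A, without mtsf1 A or with each gene's own variance.

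Editing of nad1 in Col-0 was near complete at all 18 sites. The mean level, T over T plus C reads, was 99.5% in library A and 99.4% in B, or 99.4% ± 0.0760 (SD over 2 library means). Library A had 2894 reads over the 18 sites and B had 5198. A site had 7 to 502 reads in A (median 139) and 23 to 1553 in B (median 175.5). No C read was seen at 12 sites in A and at 10 in B, and every site was above 95% in both.

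The 5 sites of segment 1 had no C read in either library. They include the pair at coding positions 307 and 308 (MT 83015 and 83014), which together turn a proline codon, CCG, into the leucine codon TTG, with 181 and 190 reads in A and 423 and 432 in B. The lowest level in A was 95.9% at position 635 (MT 59456, serine to leucine; 97 reads, Wilson 95% interval 89.9% to 98.4%), where B had 99.6% of 281 reads. The lowest in B was 95.6% at position 823 (MT 233977, leucine to phenylalanine; 45 reads, interval 85.2% to 98.8%), where A had 7 of 7 reads edited, an interval of 64.6% to 100%. Intervals cover counting error only, since reads without molecular identifiers are not independent molecules.

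The single silent site of nad1, position 492 (MT 59313), lies between positions 490 and 493 in the cluster printed above. It was edited at 98.4% of 61 reads in A and 99.4% of 154 in B. Its neighbours, which change proline to serine and arginine to cysteine, stood at 100% in A and at 100% and 98.4% in B. Counting intervals of the 3 sites overlap in each library.

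Unedited reads in nad1 were few but outnumbered reads of the other bases. C reads made up 15 of the reads in A (0.518%) and 25 in B (0.481%). Reads with A or G, which neither editing nor the genome gives, made up 2 (0.0691%) and 6 (0.115%). Position 580 (MT 59401, arginine to cysteine), the most covered site in both libraries, held 4 of the C reads in A and 14 in B, at levels of 99.2% of 502 reads and 99.1% of 1552 T plus C reads. By reads summed over both libraries the next most covered, positions 265 (MT 83057, arginine to tryptophan) and 743 (MT 233897, proline to leucine), had 259 and 358 reads in A and 598 and 348 in B, at levels of 100% and 99.7% in A and 100% in B. By Fisher's exact test none of the 15 nad1 sites with 20 or more such reads in each library differed between them after Benjamini-Hochberg adjustment over 226 sites, of which 0.442% were called. Without adjustment 1 of the 15 had a Fisher's exact p below 0.05, position 635 (exact p = 0.0166, adjusted p = 1).

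The deposited reference fraction put nad1 at the top as well. Its mean over the 18 sites was 99.6%, the highest of 29 genes, with single sites from 98% to 100%. Where that reference comes from was not stated in the labels or the file headers. Each taken alone, 17 of the sites change an amino acid and 1 is silent. There were 4 changes from proline to leucine, 3 from arginine to tryptophan, and 2 each from proline to serine, arginine to cysteine, leucine to phenylalanine, serine to leucine and serine to phenylalanine. The base before the site in the deposited sequences was T at 12 and C at 6, with no purine, beside 68.0% T and 24.9% C over the 434 sites. The annotation also notes that the nad1 start codon, ACG in the genome, is made by editing, and that site was not analysed here.

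matR could hardly be read for editing. Its 10 sites held 10 reads in all in library A and 25 in B, with a median of 1 and 0 reads per site. 8 of the sites in A and 7 in B had 0 or 1 read, beside 48 and 40 of the 434 listed sites. Its median depth was the lowest of the 29 genes in A and shared the lowest place with rps7 in B, whereas nad1 ranked 26 from the lowest in both. No matR site reached 20 reads in both libraries, so none was tested.

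The best covered matR site was position 326 (MT 231414, proline to leucine), with 1 of 1 read edited in A and 12 of 12 in B (Wilson 95% interval 75.8% to 100%). The reference there was 78% with a spread of 9 points, inside that interval. Position 1759 (MT 232847, histidine to tyrosine) had 0 of 2 reads edited in A and 6 of 9 in B (66.7%, interval 35.4% to 87.9%), beside a reference of 65%. At position 413 (MT 231501, serine to leucine) all 3 reads were edited in each library, with intervals of 43.9% to 100% and a reference of 88%. The silent sites at 1545 and 1548 had 1 unedited read each, and the silent site at 1683 had 1 edited read, all in A. Position 1682, beside the latter and a change from serine to phenylalanine, had 1 edited read in A, and position 1847 had 1 edited read in B. Positions 1703 and 1723 had no read in either library, so no level can be given.

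Pooled over its sites, matR had 6 of 10 reads edited in A (60%, Wilson 95% interval 31.3% to 83.2%) and 22 of 25 in B (88%, interval 70.0% to 95.8%). The reference weighted by the same reads was 66.4% and 74.9%, inside both intervals. At the 3 sites read in A and in B, levels averaged 77.8% ± 15.7 (SD over 2 library means). The pooled level of nad1 was 99.5% in both libraries, with intervals of 99.1% to 99.7% in A and 99.3% to 99.7% in B, above the matR interval in each library. Sites a few bases apart, such as matR 1545 and 1548 or 1682 and 1683, can be counted on the same read. The pooled intervals of both genes treat such counts as independent, so they may be too narrow and their separation was not tested.

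In the reference fractions matR stood low, with a mean of 64.2% over 10 sites, rank 4 from the lowest of 29 genes, and single sites from 34% to 88%. The 3 silent sites had references of 37%, 34% and 45%, the lowest of the gene, and the 7 that change an amino acid ran from 64% to 88%. The mean spread given with the reference was 12.4 points per matR site and 0.389 points per nad1 site. matR had 5.07 listed sites per kb of coding sequence and nad1 had 18.4, and the base before the matR sites was T at 5 and C at 5.

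**Figure D4:**
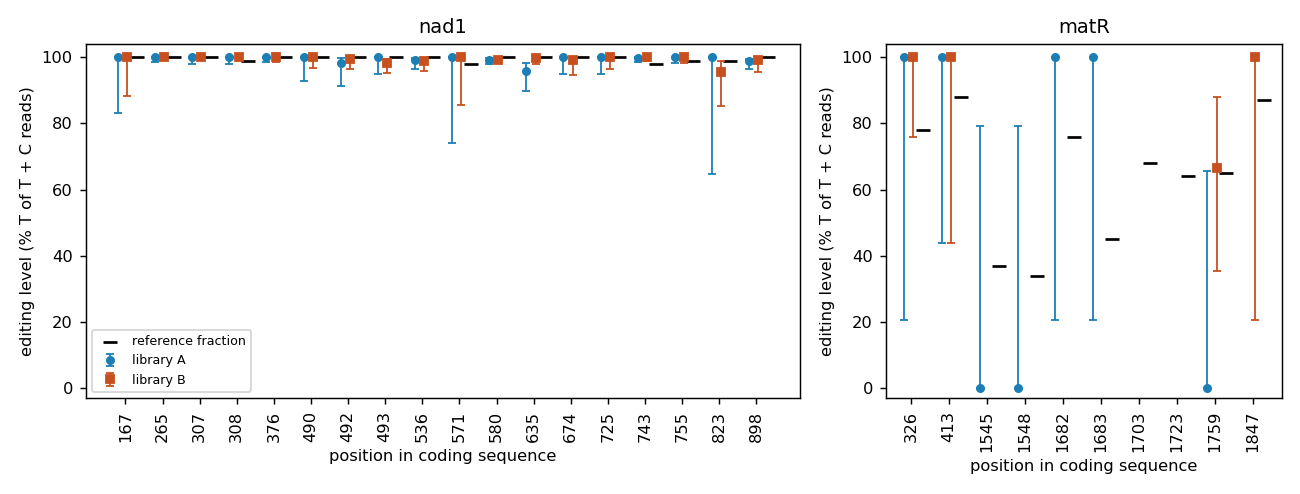
Editing level (T as a percentage of T plus C reads, y axis) at each listed site by position in the coding sequence, for nad1 (left) and matR (right), with circles for RNA-seq library A, squares for B, bars for Wilson 95% intervals and black dashes for the deposited reference fraction. The nad1 points all lie above 95%, and the matR points lie anywhere from 0% to 100% with bars that span much of the axis.

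Read depth at the nad1 sites changed sharply over short distances, in the same places in both libraries. Position 571 (MT 59392, leucine to phenylalanine) had 11 reads in A and 23 in B. Position 580, only 9 bases on, had 502 and 1553, which is 45.6 and 67.5 times more. A drop of the same kind stood at position 823, with 7 and 45 reads, between position 755 with 214 and 229 and position 898 with 251 and 126. Position 167 (MT 83155, serine to leucine) had 19 and 29 reads, beside 259 and 598 at position 265. Because neighbouring bases of 1 mRNA differ this much, depth at a single site is not a level of the transcript, and the cause was not tested. At position 674, the site of segment 4, depth was 74 and 103, and at position 635, the site before it, 97 and 281. Position 725, the first site after the matR intron, had 70 and 102, and position 743, 18 bases on, had 358 and 348. The matR sites inside that intron had at most 3 reads each in A and 12 in B. Depths on the 2 sides of the intron and inside it were not tested against each other.

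**Figure D5:**
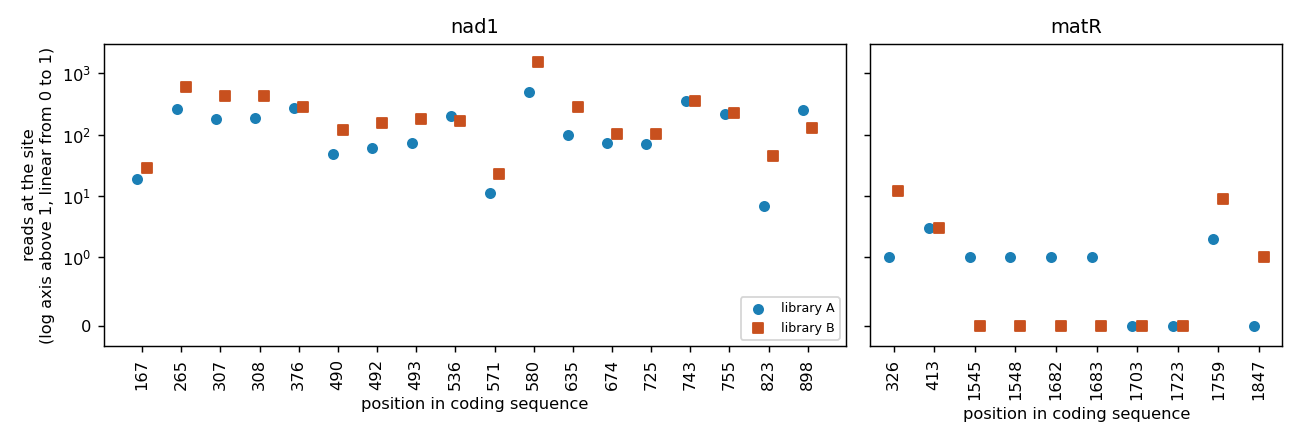
Reads at each listed site by position in the coding sequence for nad1 (left) and matR (right), with circles for RNA-seq library A and squares for B, on an axis that is logarithmic above 1 and linear from 0 to 1. nad1 dips to 11 and 23 reads at position 571 and peaks at 502 and 1553 at position 580, and matR has no site above 12 reads.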

How the data were processed

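The authors deposited 1 normalized score per gene and Ribo-seq library, a read count normalized by a method that no label or header states and rounded to whole numbers. Cutadapt 1.9.1, Bowtie 1.1.2 and featureCounts 1.5.0-p2 are named in the submitters' processing notes. The genome build, the strand handling and the program that called editing were not given in the sources used here. As deposited by the authors, per the file headers, each editing table gives a count of reads per base, an observed editing fraction, left empty at 10 reads or fewer, and a reference fraction with its spread.

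For footprints, limma 3.58.1 (R 4.3.3) was fitted to log2(value + 1) of all 33 genes, none of which the filter on low values removed, with two-sided p-values, Benjamini-Hochberg adjustment and a threshold of 0.05. limma gave all genes 1 shared variance (99 degrees of freedom), so every gene has the same standard error. The ratio fit took each gene over nad1. Editing levels are T over T plus C reads with Wilson 95% intervals. Libraries were compared by two-sided Fisher's exact test (scipy 1.17.1). Steps were tested on simulated data. The genes, lists and tests were chosen with earlier results of these data known.

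Named genes were nad1, matR, every complex I or intron-carrying gene past the threshold, and the 3 genes closest to each by Pearson correlation. Named sites were silent sites, sites below 90%, sites that differed between libraries and, per gene, the 3 most and 3 least covered. Other sites named were chosen after their values were seen. Alternatives covered pseudocounts, scaling, filters, variance, a fit of 2 genotypes alone, a replicate block, coverage minimums and leaving out each library.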

Additional observations from a re-analysis of the deposited data

Results flagged for a closer look

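The difference of matR footprints from Col-0 was not the same in the 2 mutants. Against the same Col-0 libraries the log2 difference of matR was -0.52 for mtl1 and 1.88 for mtsf1. The gap between these values, which is the comparison of mtl1 with mtsf1, was -2.40 (limma adjusted p = 2.9e-16, or 0.00955 with each gene's own variance). In this comparison 24.2% of the 33 genes passed. Both mtl1 libraries lay below both mtsf1 libraries, as in 33.3% of the 33 genes.

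The matR to nad1 ratio differed in the same way, with -0.16 in mtl1 and 2.15 in mtsf1. The difference was -2.30 (limma adjusted p = 1.1e-13, or 0.0125 with each gene's own variance), where 28.1% of the 32 genes passed. Neither value changed side of the threshold under any alternative that was run.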

How the results depend on the processing

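The rise of matR in mtsf1, its difference between the mutants and both corresponding ratio results kept their direction and passed under every alternative run (16 for matR, 14 for the ratio, which scaling cannot change). The alternatives were not all separate checks. The filter removed no gene, so dropping it repeated the main fit. Leaving out a library of the genotype not compared repeated the fit of the 2 compared genotypes alone. nad1 passed under none. Its log2 difference in mtsf1 against Col-0 turned to 0.074 after scaling to equal totals and to 0.016 when nad4 and nad7 were left out of those totals. Scaling to equal totals moved the median of all genes from 0.03 to 0.36 in mtsf1 against Col-0. With 1 library left out, nad1 in mtl1 against mtsf1 ran from -0.24 to 0.038, matR in mtl1 against Col-0 from -0.74 to -0.29, and the ratio in mtl1 against Col-0 from -0.37 to 0.054. matR in mtl1 (-0.52) passed when genes of low mean other than the members were left out (25 genes tested, limma adjusted p = 0.0436). Its limma adjusted p was 0.215 with a variance that follows the level and 0.202 with each gene's own variance. With each gene's own variance, complex I had 1 call in mtl1 in place of 2 (nad9 no longer passed), and the intron list 2 calls in mtsf1 in place of 4 (without rpl2 and rps3). In mtl1 the intron list had 1 to 2 calls with a library left out. The mean nad1 editing level was 99.7% over sites with at least 100 reads and 99.5% by the authors' fractions, and that of matR ran from 57.1% to 91.7% with a library left out, over different sites. Coverage minimums of 20 and more left no matR site. Where no cause is named, the cause was not tested.

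Whether the letters A and B mark batches shared between genotypes is not given in the labels. The A minus B differences correlated between genotypes at 0.066, 0.0039 and -0.14. Such values cannot show that no batch was shared, since normalization can remove a shift common to a library. With the letter as a replicate block matR in mtsf1 stayed at 1.88 (limma adjusted p = 3.4e-10), and no call on nad1, matR or their ratio changed. With the block, and with the mtsf1 letters crossed, a setting chosen after seeing the data, 8 genes passed in mtl1 against mtsf1, as without it. Depth limits matR editing, with at most 12 reads per site.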
